A study of Xenopus laevis with 31 samples.

Results

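Frog embryos begin development on RNA that the mother stored in the egg, and the embryo's own genome is switched on at the blastula stage. Transcripts that first appear then, and go on accumulating while the germ layers are laid down and the neural plate folds, include many regulators and early differentiation products of those layers. The data below describe 75 Affymetrix probe sets of Xenopus laevis, the African clawed frog, whose signal was higher in the gastrula than in the egg and higher again in the neurula. They were chosen by group means of log2 intensity: control embryo 11 minus egg of at least 1.5, control embryo 18 minus control embryo 11 of at least 1, and an absolute difference of less than 1 between vegetal endoderm and animal cap explants. They are 0.484% of the 15491 probe sets that are not array controls. Of all probe sets 6.6% passed the first of these thresholds and 1.12% passed both stage thresholds. The stage and vegetal against cap differences chose the members, so they are given as descriptions without a test. An array signal does not tell stored RNA from newly made RNA, and the word zygotic in what follows stands for the rule.

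The study set out to map the genes that control endoderm formation. Its 31 arrays fall into 9 groups, all of Xenopus laevis embryos or explants. The explants are Equatorial, a microdissected belt that includes mesendoderm (n = 2), Vegetal endoderm (n = 2) and animal cap ectoderm (n = 3), all labelled stage 11, with only the caps given a cutting stage, stage 9. The injected whole gastrulae (stage 11) received, vegetally at the 2-cell stage, either 1 ng of RNA for Cerberus-Short (n = 3), a secreted protein that blocks nodal ligands, or a morpholino, an antisense oligonucleotide that blocks translation or splicing of its target. Mixer-MO (n = 2) targets Mixer, a homeodomain factor of the endoderm, at 40 ng, although a title of that group gives 32 ng. Sox17-MO (n = 3) combines morpholinos to 3 Sox17 genes, which encode HMG-box factors of the endoderm, at 20 ng each. The remaining samples are egg (n = 3) and the whole embryos called controls, gastrula or control embryo 11 (n = 9) and neurula or control embryo 18 (n = 4). The controls carry no named oligonucleotide or RNA, and the title of 1 calls it uninjected. Each array held RNA of about 20 pooled sibling embryos or about 50 pooled explants. Precision is set by how few arrays each group has. Which samples came from 1 mating is not labelled, and the p-values below cover only the spread seen among these arrays, which may be technical.

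The deposited tables name each probe set by an identifier alone. The table of gene names used here matched none of them, so genes, functions, sequences and marker genes of the tissues were not analysed, and neither were the injected targets themselves as a check of the labels. The identifiers carry some information. The number after "Xl." is that of an expressed sequence cluster, and the ending says how specific the probes are: _a_at, _s_at and _x_at mark probe sets whose probes may also match other transcripts, related or not. Among the members 8 (10.7%) ended in _a_at and 7 (9.33%) in _x_at, against 3.46% and 3.58% of all probe sets. The 75 members carried 66 cluster numbers, and 16 members shared 7 of them, so members on a shared number are not independent. The largest such family is Xl.1643 with 4 members.

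A shared number did not always mean a shared profile. Of 25 further probe sets on a member's number, 10 met the egg to gastrula threshold, 12 the gastrula to neurula threshold and 3 met both, and these 3 differed too much between vegetal endoderm and cap to be members. Xl.5908.1.S1_s_at was one of them, with a vegetal minus cap difference of -1.60. The member Xl.4515.1.S2_a_at had a mean intensity of 13.5 in eggs, while Xl.4515.1.S1_at on the same number had 2375 in eggs and a neurula minus gastrula difference of 0.07.

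The first step was the larger one in most members. Over the 75 members the gastrula minus egg difference had a median of 2.19 on the log2 scale (4.56-fold) and a range of 1.501 to 5.88, and the neurula minus gastrula difference had a median of 1.47 (2.78-fold) and a range of 1.02 to 3.40. The first difference exceeded the second in 63 members (84%, against 44.1% of all probe sets). The rule asked for at least 1.5 at the first step and 1 at the second, so this order follows in part from it. From egg to neurula the fold ran from 5.98 to 186 with a median of 14.8. The median member lay at the 25.8th percentile of all probe sets in the egg, the 62nd in the gastrula and the 88.2nd in the neurula. Group mean intensities ran from 6.91 to 279 in eggs, from 28.0 to 944 in gastrula controls and from 82.5 to 2493 in neurulae.

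**Figure D1:**
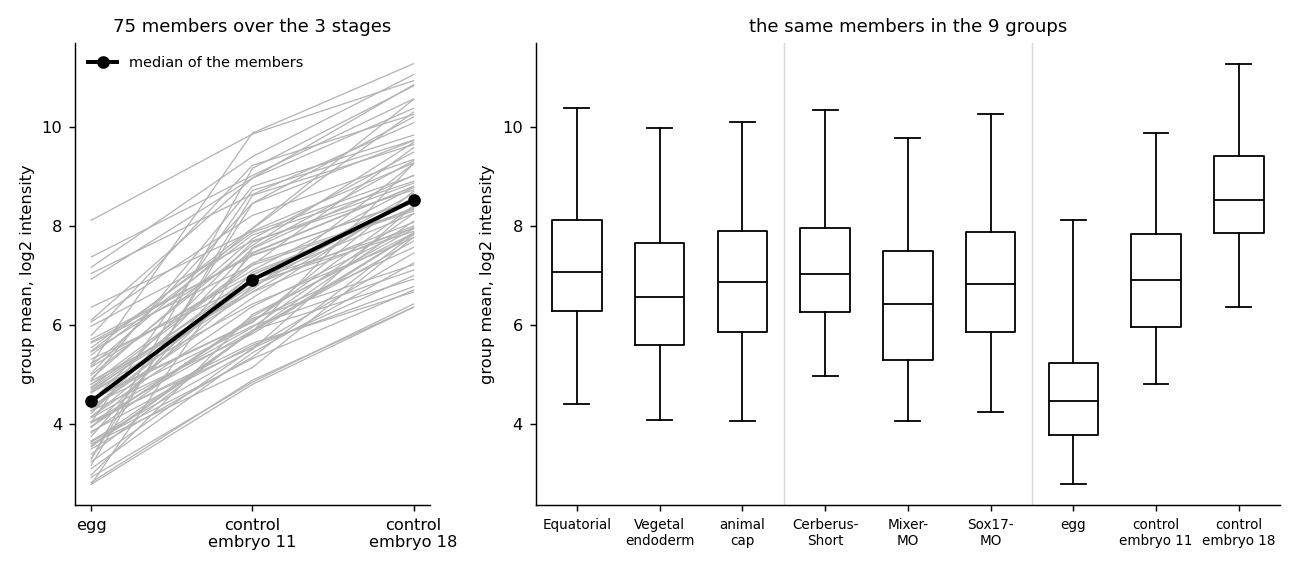
Group mean log2 intensity of the 75 members. Left, 1 grey line per member over egg, gastrula (control embryo 11) and neurula (control embryo 18), with the median in black. Right, boxes for all 9 groups (line, median; box, quartiles; whiskers, lowest and highest member): medians of the explants and injected gastrulae lie near that of the gastrula controls, between egg and neurula.

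The stage steps were wider than the spread between arrays in most, not all, members. Every gastrula control lay above every egg for 73 members, every neurula lay above every gastrula control for 44, and both held for 42 (56% of the members, against 14.4%, 12.1% and 1.55% of all probe sets; the rule used these contrasts). The exceptions at the first step included Xl.5798.2.S1_a_at, with 30.8, 656 and 1072 in the 3 eggs and 786 to 1216 in the gastrula controls, so that 1 egg was low and the other two stood near or among the controls. The rule sets no egg level. The egg mean was under an intensity of 32 for 52 of the 75 members, and the highest after Xl.5798.2.S1_a_at (279) were those of Xl.1271.1.S1_at (167), Xl.1673.1.S1_at (144) and Xl.25811.1.S1_x_at (132), all above the egg arrays' own medians of 65.1 to 71.8.

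Xl.5908.2.A1_at had the largest rise from egg to neurula, 186-fold. Its intensities were 12.6, 8.16 and 9.21 in eggs, 218 to 1660 with a median of 531 in gastrula controls, and 2157, 773, 2380 and 2817 in neurulae. Egg and gastrula arrays were far apart, while the neurula labelled replicate 2 fell among the gastrula controls. Xl.5908.1.S1_x_at, on the same number, had 41.9, 30.1 and 41.4 in eggs, 463 to 2708 (median 925) in gastrula controls and 3426, 1041, 3015 and 3594 in neurulae, with the same neurula low.

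Both Xl.5454 probe sets had a larger fold from egg to gastrula than from gastrula to neurula. Xl.5454.1.S1_at had 8.33, 9.58 and 9.29 in eggs, 183 to 996 (median 468) in gastrula controls and 981, 455, 1009 and 930 in neurulae, a gain of 43.6-fold and then 2.04-fold. All 3 of its egg values took an assigned reading, as described under data processing, so its first gain rests on that reading. Xl.5454.1.S2_at had 13.1, 9.35 and 8.03 in eggs, 171 to 980 (median 389) in gastrula controls and 1179, 428, 862 and 1202 in neurulae. Neurulae and gastrula controls overlapped for both. Xl.20772.1.A1_at had 7.73, 6.57 and 6.53 in eggs, 131 to 352 (median 185) in gastrula controls and 401, 500, 595 and 629 in neurulae, and its 3 stages did not overlap.

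Some members had a larger fold from gastrula to neurula than from egg to gastrula. Xl.5994.1.A1_at gained 5.01-fold and then 10.6-fold: it had 11.8, 8.97 and 15.0 in eggs, 32.2 to 156 (median 52.2) in gastrula controls and 568, 658, 597 and 653 in neurulae. Xl.9990.1.A1_at had 11.4, 16.6 and 10.9 in eggs, 29.5 to 68.0 (median 45.7) in gastrula controls and 327, 411, 311 and 327 in neurulae. The stages did not overlap for either. Xl.1362.2.A1_at and Xl.15311.1.S1_at followed with 6.27-fold and 6.21-fold between gastrula and neurula.

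The thresholds cut through a continuous range. The members just inside the first threshold were Xl.283.1.S1_at (gastrula minus egg 1.501) and Xl.8775.2.A1_at (1.54), and Xl.4577.2.S1_at and Xl.3675.1.A1_at lay just outside at 1.49 each. Xl.5418.1.A1_at (neurula minus gastrula 1.02) and Xl.5454.1.S1_at (1.03) were just inside the second, with Xl.12164.1.S1_at (0.995) and Xl.15595.1.S1_at (0.995) just outside. For vegetal minus cap, Xl.1673.1.S1_at (0.98) and Xl.25811.1.S1_x_at (-0.97) were inside, and Xl.22865.1.S1_at (-1.001) and Xl.8095.1.S1_at (-1.01) outside. Of all 174 probe sets that met both steps, 68 were lower in vegetal endoderm than in cap by 1 or more and 31 were higher by 1 or more. The members' own vegetal minus cap difference had a median of -0.36.

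Many members, not all, moved together from array to array. Over the 9 gastrula controls Pearson r between 2 members had a median of 0.46. It was 0.33 between probe sets without a vegetal or cap bias that were level from egg to gastrula and higher at the neurula. Set against the mean of the other members, 57 of the 75 had r above 0.5, and the lowest r was 0.058. Averaged over the 75 members and set to 0 at the gastrula control mean, the level was 0.20 ± 0.19 in Equatorial (SD, n = 2), -0.42 ± 0.26 in Vegetal endoderm (n = 2) and -0.15 ± 0.18 in animal cap (n = 3). It was 0.09 ± 0.93 in Cerberus-Short (n = 3), -0.55 ± 0.42 in Mixer-MO (n = 2) and -0.10 ± 0.48 in Sox17-MO (n = 3), with an SD of 0.37 in the 9 gastrula controls. Eggs stood at -2.44 ± 0.05 (n = 3) and neurulae at 1.61 ± 0.19 (n = 4). This average thus varied more among whole gastrulae than among eggs or neurulae. The egg titles all carry 1 letter, while those of the gastrulae carry several and those of the neurulae carry f, G and I. Whether the letters bear on the spread was not tested. For single members the SD of log2 intensity between arrays had a median of 0.22 in eggs and 0.55 in gastrula controls. Over all probe sets these medians were 0.19 and 0.34. In Cerberus-Short the SD of log2 intensity between arrays had a median of 1.08 over the members, against 0.37 over all probe sets.

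Injected and control gastrulae sharing a letter in their titles moved alike, though the labels do not say what the letter marks. The main fit had no term for the letter and took arrays of 1 letter as independent, so its p-values leave this likeness out. The letter entered only the alternatives, where as a random block its correlation was 0.409. Residuals of injected and control arrays of 1 letter correlated at 0.502 to 0.846 across probe sets in 7 pairs. The Equatorial and Vegetal endoderm arrays that share letter H had a correlation of -0.011. Each of these groups holds 2 arrays, whose residuals mirror each other, so every pair between the groups has a correlation of this size. The value shows no likeness of the letter H arrays, but each group gives only a single difference between arrays. Mixer-MO also holds 2 mirrored arrays. Its letter J array correlated at 0.792 with the control of that letter, and its other array at -0.792 with the same control. The 5 arrays of letter f are 1 each of Cerberus-Short, Sox17-MO and control embryo 11 and 2 of control embryo 18. Its gastrula arrays were each the highest of their group: 0.90 in Cerberus-Short, 0.35 in Sox17-MO and 0.82 in control embryo 11, whose other arrays ran from -0.42 to 0.11. That control, replicate 9, was the highest of the 9 for 45 of 75 members (60%), against 19.5% of all probe sets. The letter f arrays also had the lowest median intensity of their gastrula groups: 66.9 in Cerberus-Short (the others 70.7 and 76.9), 67.3 in Sox17-MO (70.6 and 72.4) and 66.7 in control embryo 11 (up to 76.3). The GAPDH 3-prime minus 5-prime probe difference, a sign of RNA integrity, was 3.04 log2 units on replicate 9, in a control range of 1.65 to 3.90, and 3.15 on the letter f array of Cerberus-Short, the highest of that group. The same difference for actin was -0.39 on replicate 9, with one other control at 0.90 and the rest at -2.16 or lower, and in Cerberus-Short it was 0.43 on the letter f array and -2.68 and -2.92 on the others. On the letter f array of Sox17-MO it was -2.27, with -3.38 and -2.44 on the others. The GAPDH difference was 1.80 on that letter f array, within the 0.92 and 1.97 of the other Sox17-MO arrays. In Mixer-MO the GAPDH difference was 1.79 on replicate 1, without a title letter, and 3.60 on replicate 2, of letter J. The actin difference was -2.68 and 1.49 on the same arrays. In Vegetal endoderm the actin difference was -1.50 on replicate 1 and 1.70 on replicate 2, the highest of all arrays. The GAPDH difference there was 2.39 and 2.75. The part of any of these in the members' level or in the calls was not tested. Eggs were all of letter L, a letter no other group carries, so for eggs letter and stage cannot be told apart.

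**Figure D2:**
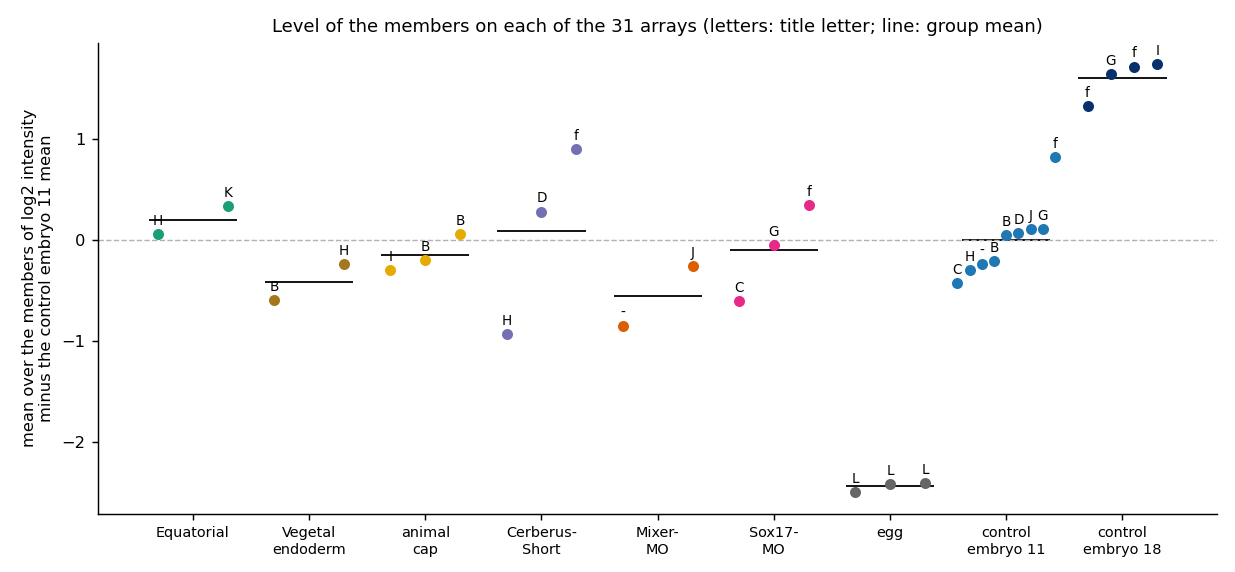
Mean over the 75 members of log2 intensity minus the control embryo 11 mean, 1 point per array for all 31 arrays, with the letter of the array title above each point (a dash where the title has none) and a line at each group mean. The letter f arrays are the highest of Cerberus-Short (0.90), Sox17-MO (0.35) and control embryo 11 (0.82), and eggs (-2.50 to -2.41) and neurulae (1.33 to 1.74) lie outside all gastrula arrays.

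The second step was smaller in letter f. Neurula minus gastrula averaged 1.53 over the members for the pair of arrays in letter G, where 56 of 75 members rose by 1 or more. In letter f it averaged 0.90 and 0.50 against the single gastrula control there, with 34 and 21 members at 1 or more. These differences chose the members and are given as values.

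The equatorial explants were used by no part of the rule, and in them 50 of 75 members (66.7%) had a higher mean than in both other explants, against 21.9% of all probe sets. The Equatorial minus animal cap difference had a median of 0.29 over the members, against -0.02 over all probe sets, and Equatorial minus Vegetal endoderm had 0.67 against -0.13. Single arrays moved these medians: the first was 0.16 without Equatorial replicate 2 and 0.18 without animal cap replicate 3, and the second was 0.34 without Vegetal endoderm replicate 1. By limma, with a Benjamini-Hochberg adjusted p under 0.05 over all probe sets and a change of 2-fold, 1 member was called higher in Equatorial than in animal cap (1.33% of members, background 0.71%) and 0 lower (background 0.136%). At an unadjusted p under 0.05 the counts were 8 higher (background 3.22%) and 1 lower (background 2.95%). Against Vegetal endoderm 3 members were called higher (4%, background 2.47%) and 0 lower (background 2.41%), with 9 higher (background 8.73%) and 2 lower (background 10.3%) at an unadjusted p under 0.05. With 1 and 3 calls the members' shares are near the background. Both other explants entered the rule, which kept them within 2-fold of each other.

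Xl.16206.1.A1_at was the member called against animal cap. Its intensities were 521 and 656 in Equatorial, against 92.6, 87.2 and 12.9 in animal cap, and 69.1 and 89.8 in Vegetal endoderm. Both equatorial arrays lay above all 5 others. The difference was 3.64 ± 0.82 log2 units from animal cap (SE, 12.4-fold, limma adjusted p = 0.021) and 2.89 ± 0.90 from Vegetal endoderm (limma adjusted p = 0.0595). No member was called against animal cap without the low cap, replicate 3, or without either equatorial array. The call was also lost with the letter as a fixed block, where Xl.802.1.S1_at and both Xl.5454 probe sets were called instead. Eggs had 120, 11.7 and 18.3.

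Xl.802.1.S1_at rose 8.07-fold over Vegetal endoderm. It had 136 and 247 in Equatorial, against 27.0 and 19.1 in Vegetal endoderm, and 23.8, 47.7 and 37.3 in animal cap. Its eggs had 26.6, 25.1 and 32.8, so the caps at 47.7 and 37.3 lay above every egg and the Vegetal endoderm array at 19.1 below every egg. Gastrula controls had 54.5 to 259 (median 165). Equatorial minus Vegetal endoderm was 3.01 ± 0.73 (SE, limma adjusted p = 0.0133), and the pair of arrays in letter H alone differed by 2.83.

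Xl.5454.1.S2_at had 321 and 444 in Equatorial, against 115 and 36.5 in Vegetal endoderm, and 76.7, 54.3 and 112 in animal cap. Equatorial minus Vegetal endoderm was 2.54 ± 0.70 (SE, 5.82-fold, limma adjusted p = 0.031) and Equatorial minus animal cap 2.28 ± 0.64 (limma adjusted p = 0.12). Its partner Xl.5454.1.S1_at had 360 and 498 in Equatorial, against 293 and 31.5 in Vegetal endoderm, and 73.0, 72.6 and 72.6 in animal cap, and was called against neither. Under a random block for the letter it was called against both, with limma adjusted p-values of 0.0110 for Vegetal endoderm and 0.00226 for animal cap, and likewise with the letter as a fixed block (0.00656 and 0.00635). The values of Xl.6161.1.A1_at were ordered otherwise: it was low in Vegetal endoderm, at 324 and 308, with 657 and 741 in Equatorial and 562 to 696 in animal cap. Its Equatorial minus Vegetal endoderm difference was 1.14 ± 0.30 (SE, 2.21-fold, limma adjusted p = 0.0245).

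Fitted on the compared groups alone, Xl.5454.1.S2_at and Xl.6161.1.A1_at lost their calls against Vegetal endoderm (limma adjusted p = 0.106 and 0.134), and Xl.5454.1.S2_at also lost it with the median reading of open values (limma adjusted p = 0.422). Without Equatorial replicate 2 or Vegetal endoderm replicate 2 no member was called against Vegetal endoderm, and without Equatorial replicate 1 only 1 was. Among members without a call, the largest difference below 0 was that of Xl.5053.1.A1_at against animal cap (-0.96) and Xl.16567.1.S1_at against Vegetal endoderm (-1.12).

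Both equatorial arrays lay above all 5 other explant arrays for 20 of 75 members (26.7%, background 3.65%) and below all 5 for 2 members (background 6.58%). The equatorial mean was 2-fold or more above both other explants for 9 members (12%, against 0.607% of all probe sets) and 2-fold or more below both for 0 (0.207% of all). The 9 members, picked out after their values were seen, were Xl.16206.1.A1_at, Xl.802.1.S1_at, both Xl.5454 probe sets, both Xl.5908 probe sets, Xl.1249.2.S1_a_at, Xl.14715.1.A1_at and Xl.283.1.S1_at. In bulk RNA, fewer cells of a type and less RNA per cell cannot be told apart.

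**Figure D3:**
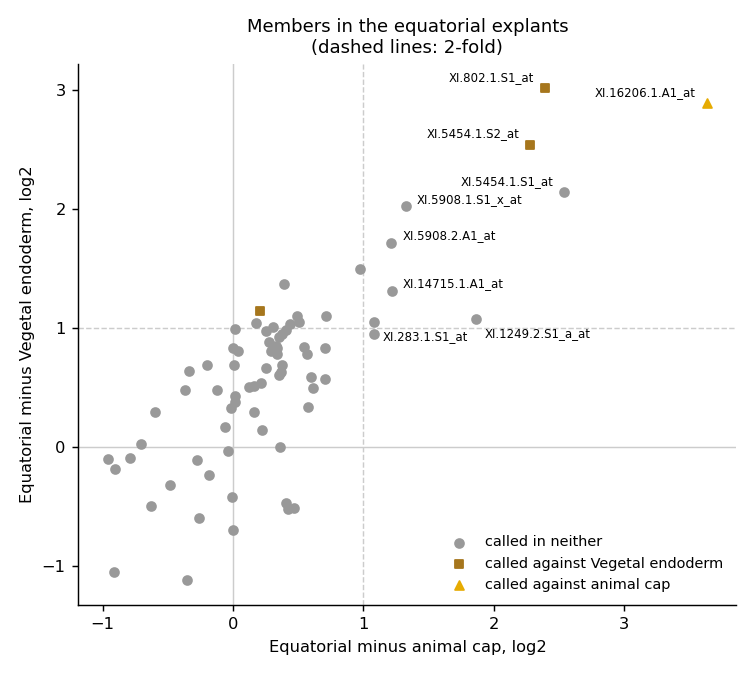
Equatorial minus animal cap against Equatorial minus Vegetal endoderm, in log2 units, for the 75 members, 1 point each. Members past both dashed 2-fold lines are named, squares mark the 3 members called against Vegetal endoderm and the triangle the 1 called against animal cap; most points lie above 0 on both axes (54 on the horizontal, 58 on the vertical).

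By group means over all controls, the members were lowest in Mixer-MO among the injected gastrulae. The Mixer-MO minus control difference had a median of -0.58 over the members, against -0.01 over all probe sets, and 61 of 75 members (81.3%) lay below 0, against 51.2% of all. Of 1289 probe sets without a vegetal or cap bias, level from egg to gastrula and higher at the neurula, 74.5% lay below 0 as well. For Sox17-MO the median was -0.12 (all probe sets 0.04), with 48 members below 0 (64%, against 43.6% of all). Without Sox17-MO replicate 1 the members' median was 0.22. Against the control of their own title letter the Sox17-MO arrays averaged -0.18 (C), -0.16 (G) and -0.47 (f). There 53, 46 and 60 of 75 members were lower, against 45.7%, 47.1% and 48.9% of all probe sets. The same mean was -0.37 for the Mixer-MO array of letter J, and 0.22, -0.63 and 0.08 for Cerberus-Short in D, H and f. On that measure Mixer-MO was not the lowest. For Cerberus-Short it was 0.09 (all probe sets 0.01), with 27 below 0 (36%, against 47% of all). These comparisons share the 9 gastrula controls, whose level also chose the members at both steps. All 3 injected means lay below the control mean for 14 members (18.7%, background 9.65%), and the Mixer-MO mean was the lowest of the 4 whole-gastrula groups for 49 (65.3%, against 40.5% of all probe sets).

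No member was called in Mixer-MO. By limma 0 were higher (background 0.0387%) and 0 lower (background 0.0258%), and at an unadjusted p under 0.05, 0 were higher (background 5.15%) and 15 lower (background 2.97%). The members averaged -0.85 on the Mixer-MO array without a title letter, where 38 of 75 members lay below all 9 controls (9.99% of all probe sets did), and -0.26 on the other, where 13 did (14.1%). The letterless array is also the one whose title gives 32 ng, so array and title dose cannot be told apart. The gastrula control without a title letter, replicate 8, averaged -0.24. Set against the single control of its own letter, J, the second array averaged -0.37, with 62 of 75 members lower, against 45.1% of all probe sets. Without the letterless array the median over the members was -0.22.

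Xl.1249.2.S1_a_at had the largest Mixer-MO difference. It had 24.4 and 23.1 in Mixer-MO, against 44.8 to 166 (median 89.9) in gastrula controls, and 23.7, 19.2 and 17.6 in eggs, so both Mixer-MO arrays lay below every control and near the eggs. The difference was -1.99 ± 0.53 (SE, limma adjusted p = 0.257). It was low in Sox17-MO too, at 26.9, 40.5 and 24.5 (difference -1.65 ± 0.45, limma adjusted p = 0.087), and each of the 3 arrays lay below the control of its letter, by -1.18, -2.03 and -2.58. Under a random block for the letter Xl.1249.2.S1_a_at was called lower in Sox17-MO (difference -1.73, limma adjusted p = 0.0213), as it was with array weights (limma adjusted p = 0.0103). In Cerberus-Short it had 121, 121 and 34.2. In Equatorial it had 59.2 and 127, against 44.7 and 38.1 in Vegetal endoderm, and 22.5, 28.5 and 21.1 in animal cap.

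All 4 Xl.1643 members had a lower mean in Mixer-MO than in gastrula controls. The Mixer-MO minus control differences were -1.49, -1.16, -0.89 and -0.81, all with a limma adjusted p over 0.2 (0.224 at the lowest). Xl.1643.2.S1_a_at had 25.0 and 61.2 in Mixer-MO, against 57.7 to 215 (median 113) in gastrula controls, so the second array overlapped the lowest controls. One more probe set on this number, Xl.1643.2.S1_at, was no member because its vegetal minus cap difference was -1.49, and its Mixer-MO difference was -1.13 (limma adjusted p = 0.33).

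The 9 members that were 2-fold higher in Equatorial were all below the control mean in Mixer-MO, from -1.99 to -0.63 with a median of -1.41. The other 66 members had a median of -0.47 and 52 of them lay below 0. Over all 94 probe sets that were 2-fold higher in Equatorial than in both other explants the Mixer-MO median was -0.48, with 65 below 0. Xl.802.1.S1_at, for one, had 65.6 and 35.5 in Mixer-MO, against 54.5 to 259 in gastrula controls, and Xl.5908.1.S1_x_at had 316 and 315, against 463 to 2708. In Cerberus-Short and Sox17-MO 6 of the 9 lay below 0 in each, with medians of -0.16 and -0.04. The 9 were chosen on their values, and the difference from the other members was not tested.

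**Figure D4:**
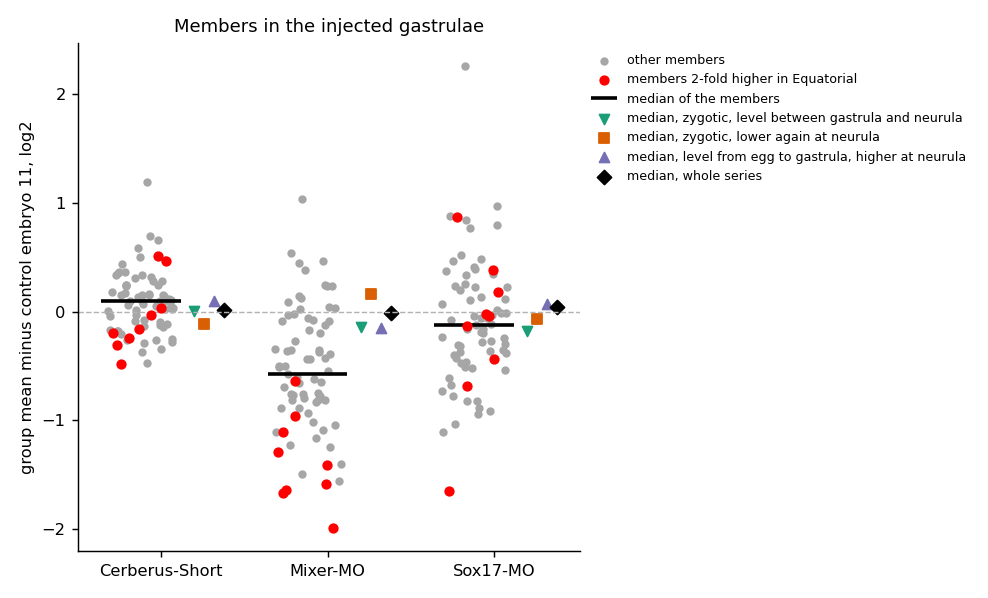
Group mean minus the control embryo 11 mean, in log2 units, for each member in the 3 injected groups (red, the 9 members that were 2-fold higher in Equatorial; black line, median of the members). Symbols to the right give the medians of 3 other classes of probe set and of the whole series: the members' median in Mixer-MO (-0.58) lies below all of these.

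Sox17-MO had 2 called members. By limma 1 was higher (1.33%, background 0.258%) and 1 lower (1.33%, background 0.684%), with 3 higher (background 2.81%) and 5 lower (background 5.37%) at an unadjusted p under 0.05. Xl.4515.1.S2_a_at had 303, 1439 and 1352 in Sox17-MO, against 80.3 to 293 (median 172) in gastrula controls. All 3 arrays lay above every control, and the last 2 above the neurulae as well (329 to 524). The difference was 2.26 ± 0.50 (SE, 4.78-fold, limma adjusted p = 0.0238), and within letters it was 0.95, 2.42 and 2.42. With the replicate number as a block no member was called. The call also ended without Sox17-MO replicate 2 (limma adjusted p = 0.291) or 3 (limma adjusted p = 0.333), without the letter f arrays (limma adjusted p = 0.188) and with the letter as a fixed block (limma adjusted p = 0.0771), where Xl.5053.1.A1_at and Xl.5053.1.A1_x_at were called instead, both lower (-1.56 and -1.38). Xl.4515.1.S1_at, on the same number and looked up after this value was seen, had 4836, 5057 and 4654 in Sox17-MO, against 3840 to 5748 in gastrula controls, a difference of -0.05 (limma adjusted p = 0.986).

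Xl.18746.1.S1_at fell in Sox17-MO by a smaller but even amount. It had 47.5, 74.9 and 58.5 in Sox17-MO, against 93.7 to 145 (median 105) in gastrula controls, and the groups did not overlap. The difference was -0.91 ± 0.23 (SE, 1.88-fold, limma adjusted p = 0.0496), and within letters it was -0.98, -0.86 and -1.30. The adjusted p sat at the threshold and 17 of 23 alternatives ended the call, with adjusted p-values up to 0.515 and differences of -1.08 to -0.74. These include leaving out any of the 3 Sox17-MO arrays or any gastrula control other than replicate 3. It was also below the control range in Mixer-MO, at 67.8 and 80.1.

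In Cerberus-Short no member was called higher (background 0.0129%) or lower (background 0.316%) by limma, with 1 higher (background 0.813%) and 0 lower (background 1.29%) at an unadjusted p under 0.05. The 3 arrays went in different directions. The members averaged 0.28, 0.90 and -0.93 on replicates 1 to 3, and 48 of 75 members on replicate 3 lay below all 9 controls (12.6% of all probe sets did), while 45 on replicate 2 lay above all 9 (14.5%). Replicate 2 was the highest of the 3 for 56 members (74.7%, against 34.7% of all probe sets). Replicate 3 was the lowest for 67 (89.3%, against 40.7%). Relative to the control of their own letter the means were 0.22, 0.08 and -0.63. Without replicate 3 the median over the members was 0.60, and without replicate 2 it was -0.29, so the sign of the group median depended on single arrays. Xl.5908.2.A1_at gave the extreme: 1245 and 1990 on replicates 1 and 2 and 55.5 on replicate 3. Xl.3464.1.A1_at went the other way, with 28.5, 135 and 656, and had the largest Cerberus-Short and Mixer-MO differences above 0 (1.19 and 1.03). Xl.5454.1.S1_at had the largest difference below 0 in Cerberus-Short, -0.48.

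Comparing injected groups with each other removes the controls. Cerberus-Short minus Mixer-MO had a median of 0.54 over the members (0.03 over all probe sets), which was 0.10 without Cerberus-Short replicate 2, 1.08 without Cerberus-Short replicate 3, and 0.19 or 0.82 when the first or the second Mixer-MO array was left out. It had 1 called higher (1.33%, background 0.0323%) and 0 lower (background 0.187%) by limma, and 15 higher (background 3.43%) and 0 lower (background 6.15%) at an unadjusted p under 0.05. Xl.1643.2.S1_a_at was that call: 249, 196 and 106 in Cerberus-Short, against 25.0 and 61.2 in Mixer-MO, without overlap, a difference of 2.15 ± 0.45 (SE, 4.42-fold, limma adjusted p = 0.034). The call was lost with the letter as a fixed block, where the difference was 1.15, without the letter f arrays, and without Cerberus-Short replicate 1 or 2 or Mixer-MO replicate 1. Without Cerberus-Short replicate 3, 5 members were called.

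Mixer-MO minus Sox17-MO had a median of -0.37 (-0.06 over all probe sets). Without Mixer-MO replicate 1 it was -0.07, near that of all probe sets, and it was -0.15 without Sox17-MO replicate 2, -0.63 without Sox17-MO replicate 1 and -0.73 without Mixer-MO replicate 2. It had 0 called higher (background 0.639%) and 0 lower (background 0.136%) by limma, and 2 higher (background 9.34%) and 14 lower (background 3.96%) at an unadjusted p under 0.05. Xl.4845.1.A1_x_at had the largest difference above 0 (1.06) and Xl.4515.1.S2_a_at the largest below 0 (-2.65 ± 0.69, SE, limma adjusted p = 0.0667), and 1 member was called without Sox17-MO replicate 1. Cerberus-Short minus Sox17-MO had a median of 0.25 (-0.02 over all probe sets), whose sign rested on single arrays: it was -0.13 without Cerberus-Short replicate 2, -0.05 without Sox17-MO replicate 1, 0.16 without Cerberus-Short replicate 1, 0.43 without Sox17-MO replicate 2 and 0.66 without Cerberus-Short replicate 3. It had 0 called higher (background 0.239%) and 1 lower (1.33%, background 0.245%) by limma, and 6 higher (background 3.98%) and 2 lower (background 2.76%) at an unadjusted p under 0.05. The call was Xl.4515.1.S2_a_at again, with 132, 355 and 53.3 in Cerberus-Short, against 303, 1439 and 1352 in Sox17-MO. The groups overlapped, and the difference of -2.63 ± 0.62 (SE, limma adjusted p = 0.0493) had an adjusted p of 0.0569 with the replicate number as a block in limma. This call was also lost without Cerberus-Short replicate 1 or 3, Sox17-MO replicate 2 or 3, or the letter f arrays, and with the letter as a fixed block, where Xl.5053.1.A1_at was called, but higher (1.80). Without Cerberus-Short replicate 3, 3 other members were called, all higher: Xl.8235.1.A1_a_at (1.37), Xl.18746.1.S1_at (1.32) and Xl.8235.2.A1_x_at (1.03). Among the uncalled, Xl.7149.1.A1_at had the largest difference above 0 in this comparison (1.54), and Xl.8235.2.A1_x_at the largest below 0 between Cerberus-Short and Mixer-MO (-0.42).

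**Figure D5:**
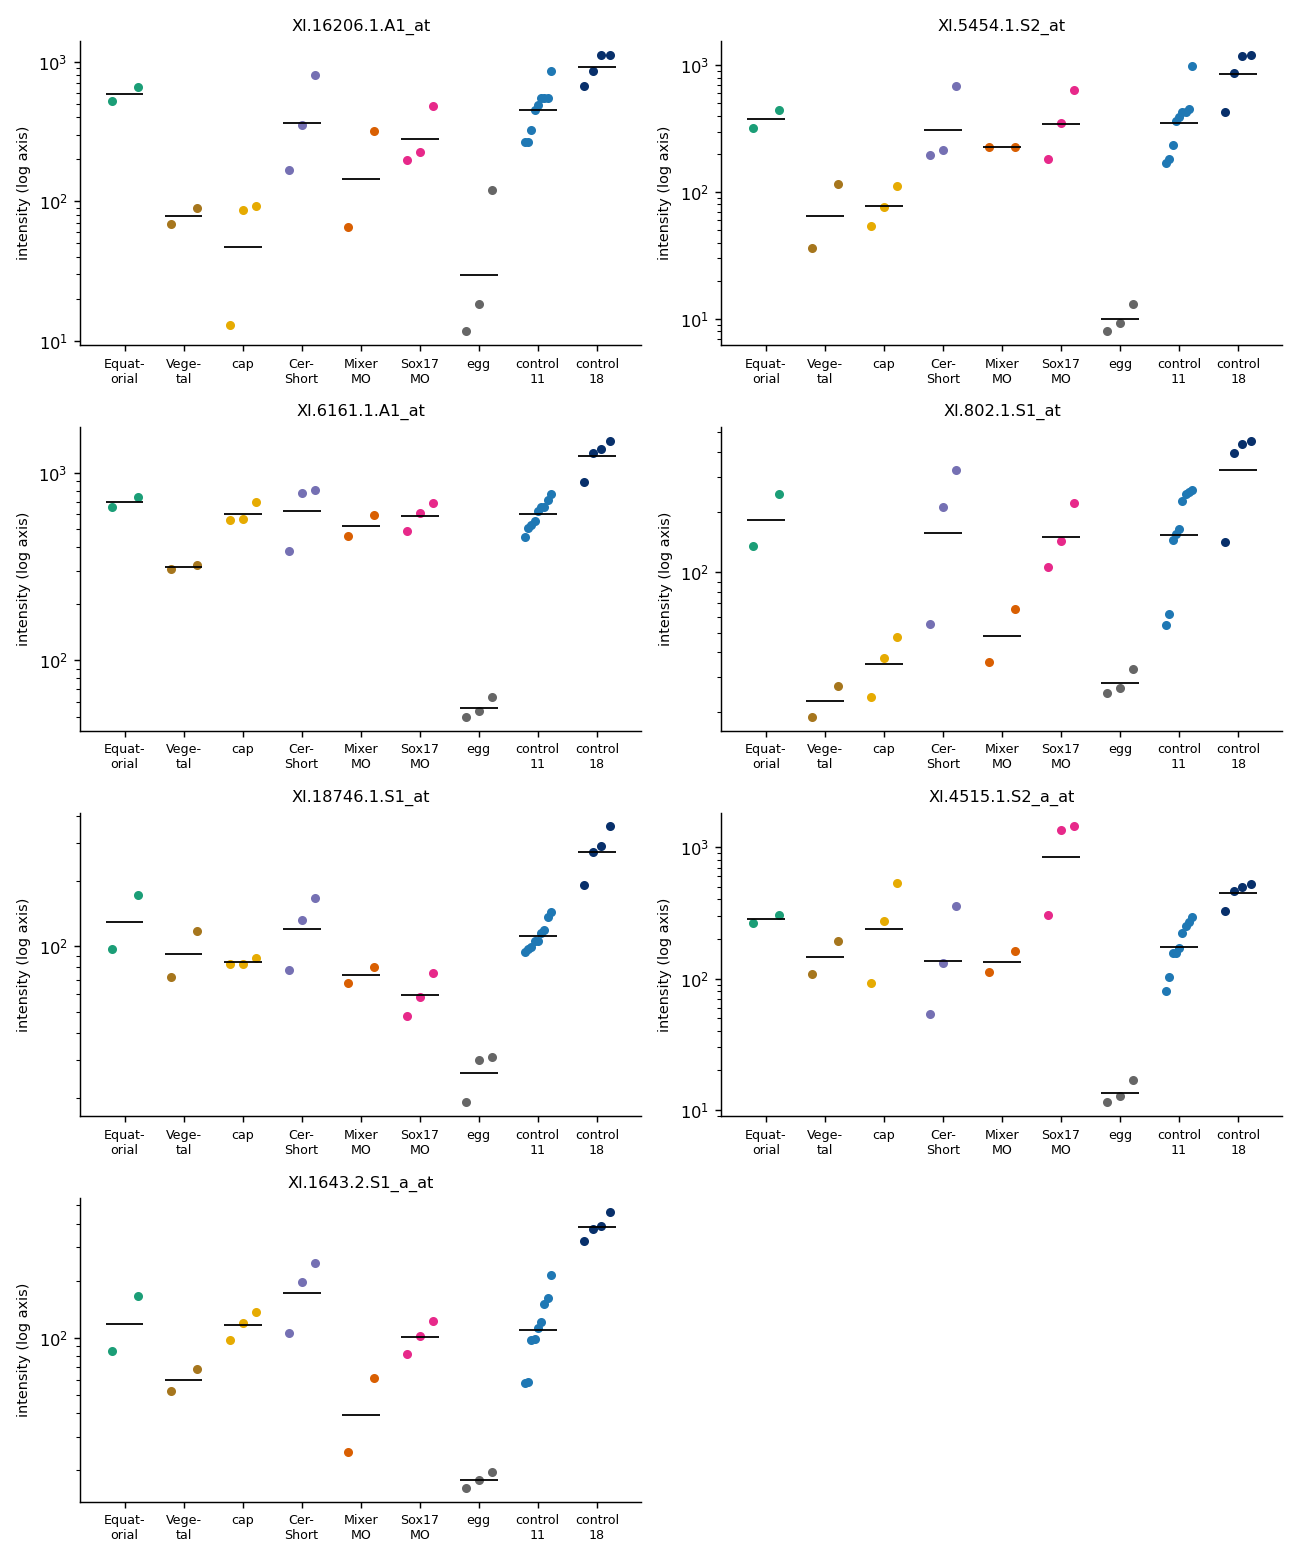
Intensity on a log axis on every array for the 7 members called in any comparison, by group, with a line at each group's mean log2 level. Xl.16206.1.A1_at, Xl.802.1.S1_at and Xl.5454.1.S2_at are higher on both equatorial arrays than on the 5 other explant arrays, and Xl.4515.1.S2_a_at is at 1439 and 1352 on 2 of the 3 Sox17-MO arrays.

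The injected gastrulae and explants stayed between egg and neurula for many members. Every injected array lay above every egg for 61 members (background 11.9%) and below every neurula for 38 (background 11.4%), and both held for 30 (40%, background 0.949%). For explants the counts were 69 (background 12.5%), 53 (background 12.1%) and 49 (65.3%, background 1.3%). The egg and neurula arrays entered the rule, so these shares follow in part from it.

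Other classes of probe set without a vegetal or cap bias were laid beside the members to see what they share. Zygotic probe sets level between gastrula and neurula (350) had a Mixer-MO median of -0.14, those lower again at the neurula (107) had 0.16, and those level from egg to gastrula and higher at the neurula (1289) had -0.15. The members' median of -0.58 was below all 3. The shares below 0 in Mixer-MO were 61.1%, 40.2% and 74.5% in the same order, against 81.3% of the members. For Equatorial minus Vegetal endoderm the medians were 0.67 in the members, 0.29, 0.05 and -0.20 in those classes in the same order, and for Equatorial minus animal cap 0.29, 0.14, 0.10 and -0.10. In Sox17-MO the members (-0.12) lay between the first 2 classes (-0.17 and -0.07). These medians are descriptions of sets whose probe sets are not independent, and their differences were not tested.

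Outside the members, 3 probe sets had the profile over the 9 group means most like the members' mean profile: Xl.23911.1.S1_at (Pearson r = 0.99), Xl.11082.1.A1_x_at (r = 0.985) and Xl.13298.1.A1_at (r = 0.985). These coefficients describe group means in which the stages differ most. Xl.11082.1.A1_x_at shares its number with the member Xl.11082.1.A1_at and was short at the second step (0.85). Xl.23911.1.S1_at was short of both thresholds, with steps of 0.90 and 0.74, as was Xl.13298.1.A1_at, with 0.57 and 0.52.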

How the data were processed

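RNA of 31 samples had been run on Affymetrix Xenopus GeneChips. The authors deposited 1 linear RMA intensity for each probe set on each array, from GeneSpring 7.1 per the deposited checklist. In the file a number of 1000 or more holds a digit-group mark, which reads like a decimal point, and this was undone first. Size and written form settled 438140 of 483941 values. The other 45801 took the reading nearest to a settled value of their probe set, which recovered 5095 of 5101 hidden settled values. A first reading, nearest to the probe set's median, was replaced after it put single values of a pair of probe sets far from their groups. The readings differ at 141 values, and 13 members hold an assigned value.

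Log2 intensities of 15491 probe sets (120 array controls left out) went into limma 3.58.1 (R 4.3.3) with 1 mean per group over all 31 arrays, 22 residual degrees of freedom, two-sided tests and Benjamini-Hochberg adjustment over all probe sets. Calls need an adjusted p under 0.05 and, for explants, a 2-fold change. The fit was also run on simulated data. Their errors were independent between arrays, so that run cannot show how calls fare where arrays of 1 letter are alike. The members and lists were chosen with earlier results of these data known. Named members are all those called, the largest stage steps, the largest uncalled difference in a direction without calls, those next to each threshold and the nearest outside profiles, and others were named after their values were seen. Planned lists of genes and tissue markers could not be matched to probe sets and were not used.

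Replicate numbers did not pair injected arrays with controls, since residual correlations of same-numbered arrays had mixed signs. Between Cerberus-Short and Sox17-MO all 3 were over 0.1 (0.328, 0.675 and 0.264 for replicates 1 to 3, replicate 2 also sharing title letter f). The unmatched pair of Cerberus-Short replicate 3 and Sox17-MO replicate 1 was over 0.1 too (0.211). Residuals in a group of 3 sum to 0, so these correlations are not independent and do not settle a pairing. The main fit left these arrays unpaired. Alternatives were blocks by replicate number and, at random, by title letter, the compared groups alone, quantile normalization, a pseudocount of 16, the lowest 40% of probe sets left out, assigned values set to missing, array weights and each replicate left out. Added after the data were seen were the letter as a fixed block, the letter f arrays left out and the median reading.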

Additional observations from a re-analysis of the deposited data

Results flagged for a closer look

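A single array apart from the others was looked for in 46 groups of values, and 5 stood out. The groups were 22 named members and the members' mean level, in gastrula controls and in neurulae. The test flags about 1 in 20 by chance where groups are independent. These groups share arrays and cluster numbers, and the rule used both stages, so the count was not set against that rate. The members' mean level on control embryo 11 replicate 9 was 0.825 above the control mean, and the next control was at 0.115. This is the gastrula control of title letter f.

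Control embryo 18 replicate 2, also of letter f, was low for 3 of the named members. Its log2 intensity was 7.15 for Xl.802.1.S1_at (next neurula 8.62), 8.83 for Xl.5454.1.S1_at (next 9.86) and 10.0 for Xl.5908.1.S1_x_at (next 11.6). All 3 are among the members that were 2-fold higher in Equatorial than in both other explants. The actin 3-prime minus 5-prime difference was 0.38 on this array, against -2.03, -2.21 and -2.45 on neurula replicates 1, 3 and 4. The GAPDH difference was 3.60 on it, against 3.38, 3.44 and 1.84. Whether these bear on its low values was not tested. For Xl.3464.1.A1_at control embryo 18 replicate 1 was low instead, at 6.60 (next 7.95).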

How the results depend on the processing

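No called member changed direction under the alternatives run, but few arrays stand behind each call and the counts moved. Against animal cap the Equatorial count was 1, and it was 0 with the replicate number as a block, 2 without the letter f arrays, 3 with the letter as a fixed block or with the compared groups alone, 4 with it as a random block, 5 with array weights and 0 to 1 with a replicate left out. Against Vegetal endoderm it was 3, and it was 2 with the compared groups alone or the median reading, 5 without letter f, 7 with the random block and 0 to 3 with a replicate left out. The pseudocount and leaving out the lowest 40% each added a call for Xl.16206.1.A1_at to those 3. The letter as a fixed block added Xl.5454.1.S1_at. The Mixer-MO count was 0, and it was 1 with the replicate block, where Xl.1643.2.S1_a_at had a limma adjusted p of 0.0297, and 0 in each fit with a replicate left out. Cerberus-Short against controls stayed at 0 in each alternative run. The Sox17-MO count was 2, and it was 0 with the replicate block or without letter f, 1 with quantile normalization, the pseudocount or assigned values missing, 3 with the random block, 5 with array weights and 0 to 2 with a replicate left out. For Cerberus-Short minus Mixer-MO it was 1, and it was 0 with quantile normalization, the pseudocount, the fixed block, the compared groups alone or without letter f, and 0 to 5 with a replicate left out. For Cerberus-Short minus Sox17-MO it was 1, and it was 0 with the replicate block, the pseudocount, the median reading, the compared groups alone or without letter f, 2 with the random block or array weights and 0 to 3 with a replicate left out. For Mixer-MO minus Sox17-MO it was 0, and it was 1 with the replicate block or the lowest 40% left out, 3 with array weights and 0 to 1 with a replicate left out. The cause of these moves was not tested. The rule chose 75 members, and 81 with quantile normalization (63 of them shared), 70 with assigned values missing, 73 with the median reading, 95 without letter f (66 shared), 41 with the pseudocount (36 shared) and 63 to 96 with a replicate left out, with 63 without Vegetal endoderm replicate 2 and 96 without control embryo 18 replicate 2. The members' median stayed below 0 in Mixer-MO in each alternative (-0.88 to -0.22) and changed sign in Cerberus-Short (-0.29 to 0.60), Sox17-MO (-0.35 to 0.22) and Cerberus-Short minus Sox17-MO (-0.13 to 0.66). It ran from 0.16 to 0.39 for Equatorial minus animal cap, 0.34 to 0.88 for Equatorial minus Vegetal endoderm, 0.10 to 1.08 for Cerberus-Short minus Mixer-MO and -0.73 to -0.07 for Mixer-MO minus Sox17-MO.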
